A study of Mus musculus with 14 samples.

Results

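The IL-4 receptor comparison in nematode-elicited macrophages sets 4 arrays of wild-type BALB/c mice against 4 arrays of BALB/c mice that lack the IL-4 receptor (IL-4R KO), over all 343 probes named for mouse miRNAs. The arrays were taken by label, with earlier results of these data known, and these 8 are every nematode array among the 14 of the series. In both groups the peritoneal macrophages were elicited by implanting the filarial nematode Brugia malayi into the peritoneum and were harvested 21 days later. They were enriched by 4 hours of adherence to plastic and were over 80% pure by F4/80 and CD11b staining; the remaining cells were not described. The other 6 arrays hold macrophages elicited by thioglycollate, a sterile irritant, for 3 days, from 3 wild-type and 3 IL-4R KO samples. They enter below only to test whether a genotype difference depended on the elicitation. Whether replicates are separate animals, whether the receptor was absent from all cells and how the allele was made are not stated in the labels. The p-values therefore cover only the variation among these arrays, part or all of which could be technical.

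The IL-4 receptor binds IL-4 and, paired with a second chain, IL-13. Through the transcription factor STAT6 it drives alternative activation of macrophages, the state that tissue-dwelling worms induce, marked in mice by arginase 1, RELM-alpha and Ym1. A miRNA is a short RNA that pairs with target mRNAs, mainly through its seed at bases 2 to 8, and lowers their translation or stability. miRNAs with the same seed can share targets, although their genes may lie at different loci. Loss of the receptor could not be checked, since these arrays carry miRNA probes and none for its mRNA.

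The sequences below belong to the miRNAs that the comparison turns on. These are miR-223 and miR-125b, which passed the threshold, and miR-22, which came close to it. With them are miR-125a, which shares the miR-125b seed, and relatives of miR-17 that share its seed. miR-99a, miR-99b and miR-100 have genes in the same clusters as miR-125a or miR-125b but share a different seed. They are the mature strands of the RefSeq annotation on GRCm38.p6, with the seed in capitals.
miR-125b-5p: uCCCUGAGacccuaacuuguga
miR-125a-5p: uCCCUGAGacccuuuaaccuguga
miR-99a-5p: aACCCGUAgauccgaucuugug
miR-100-5p: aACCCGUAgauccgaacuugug
miR-99b-5p: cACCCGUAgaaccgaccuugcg
miR-223-3p: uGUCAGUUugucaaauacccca
miR-22-3p: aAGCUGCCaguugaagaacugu
miR-106b-5p: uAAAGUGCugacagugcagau
miR-17-5p: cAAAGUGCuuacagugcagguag
miR-20a-5p: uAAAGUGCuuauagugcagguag

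miR-125b is made from a gene on each of 2 chromosomes, at chr9:41581940-41581961 and chr16:77646279-77646300 on the plus strand. Its relative miR-125a lies at chr17:17830817-17830840 on the plus strand. miR-125a and miR-125b are identical over their first 13 bases, which include the seed. miR-100 lies at chr9:41531437-41531458 on the same strand as the chromosome 9 copy of miR-125b, with 50.48 kb between the mature strands. miR-99a lies at chr16:77598940-77598961, with 47.32 kb to the chromosome 16 copy of miR-125b and 0.71 kb to let-7c. miR-99b lies at chr17:17830194-17830215, with 0.60 kb to miR-125a and 0.15 kb to let-7e. miR-99a and miR-100 differ at 1 of 22 positions, and miR-99b differs from each at 4. How far a capture probe for 1 of these strands also binds another was not tested. miR-223 lies at chrX:96242884-96242905 and miR-22 at chr11:75463772-75463793, both on the plus strand. miR-106b lies at chr5:138165787-138165807 on the minus strand, and miR-17 and miR-20a lie in 1 cluster at chr14:115043684-115043706 and chr14:115044183-115044205 on the plus strand. miR-150, miR-199b, miR-689, miR-720 and miR-422b are given by name only.

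Before the results, the arrays differ in quality in a way that touches them. Nematode wild type replicate 4 stood apart: it correlated at 0.835 with the mean of its 3 fellow arrays, and the other 13 arrays of the series gave 0.936 to 0.977 by the same measure. A probe is called above blank here when its net signal exceeded the 95th percentile set by that array's empty and negative-control spots. On replicate 4 this held for 41 mouse probes, and on the other 7 nematode arrays for 77 to 199. That percentile was 111 intensity units on it and 14.8 to 96.2 on the others. The median SD between the 3 spots of a probe was 0.172 on the log2 scale on it, and 0.059 to 0.092 on the other 7. Of the 343 probes, 24 were above blank on all 8 nematode arrays and 91 on none, so most probes were near background on some array. The myeloid miRNAs miR-223 and miR-142-3p were above blank on all 8 arrays. Of the erythroid and platelet miRNAs, miR-451 and miR-144 were above blank on none and miR-486 on 1 wild-type array. No mouse spot was saturated. Each value below is a log2 intensity after background correction and quantile normalization, and differences are wild type minus IL-4R KO, so a positive value is higher with the receptor.

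Deletion of the receptor went with lower miR-422b, miR-223, miR-125b and miR-720 and with higher miR-150 and miR-689 in nematode-elicited macrophages. These 6 of 343 probes (1.75%) passed an adjusted p of 0.05, 4 of them higher in wild type (1.17%) and 2 lower (0.583%), by limma's moderated test with Benjamini-Hochberg adjustment. Without that adjustment 43 probes (12.5%) had a p under 0.05, 15 higher (4.37%) and 28 lower (8.16%) in wild type. The 4 wild-type and 4 knockout arrays did not overlap for 31 probes (9.04%), of which 16 were higher (4.66%) and 15 lower (4.37%) in wild type. The median difference over all mouse probes was -0.004, with 166 positive and 177 negative values after normalization. The scaling sets the balance of directions. With median scaling 3 probes passed as higher and 5 as lower, with cyclic loess 7 and 7, and with arrays scaled to the spike-in controls 2 and 17.

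**Figure D1:**
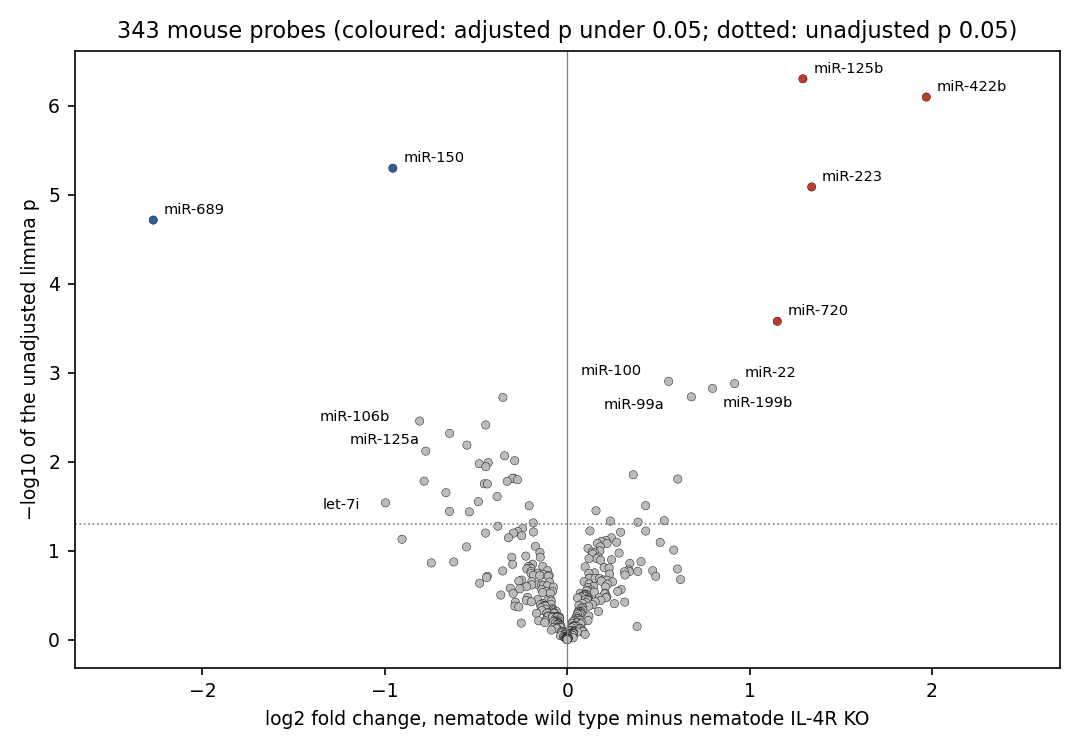
Difference between the nematode groups (x, log2, wild type minus IL-4R KO) against -log10 of the unadjusted limma p (y) for the 343 mouse probes, each a point. The 4 red points passed the adjusted threshold as higher and the 2 blue points as lower in wild type; miR-100, miR-22, miR-199b and miR-99a lie between them and the rest.

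miR-422b is the name on the array for the miRNA now called miR-378, which is encoded in an intron of Ppargc1b, the gene for a coactivator of oxidative metabolism. The 4 wild-type arrays gave 8.55, 8.85, 9.25 and 9.78. The 4 IL-4R KO arrays gave 7.26, 6.92, 7.12 and 7.26. The lowest wild-type array was thus above the highest knockout array, and on this normalized scale the wild-type arrays spread more widely than the knockout arrays. The difference was 1.97 (SE 0.22, 95% interval 1.49 to 2.44, limma adjusted p = 0.000136), a 3.91-fold higher level in wild type. On the linear scale before normalization the net signal was 611, 498, 424 and 355 intensity units on wild-type replicates 1 to 4 and 88.6 to 117 in the knockout. Background correction and normalization thus reversed the order of the wild-type arrays. Replicate 4 had the lowest net signal and the highest normalized value, so the wild-type spread given above depends on the scaling. The other strand of the same hairpin, carried on the array as miR-378, gave 6.26 ± 0.17 (SD, n = 4) in wild type and 6.05 ± 0.10 (SD, n = 4) in the knockout. It was above blank on 2 of 4 wild-type and 0 of 4 knockout arrays and did not pass (0.22, SE 0.12, limma adjusted p = 0.457), so its level was not resolved at this signal.

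miR-223 is a miRNA of the myeloid lineage, highest in granulocytes, that restrains inflammatory activation. The wild-type arrays gave 10.58, 11.00, 11.00 and 11.38. The knockout arrays gave 9.53, 9.78, 9.38 and 9.90. It was among the brighter probes in both groups, and again the groups did not overlap. It was 2.53-fold higher in wild type (difference 1.34, SE 0.19, 95% interval 0.94 to 1.74, limma adjusted p = 0.000697), with net signals of 1505 to 2126 against 734 to 895 intensity units. miR-223 also marks granulocytes, and the samples hold some other cells. Of the 7 measured members of the granulocyte and mast cell list, it was the only one to pass; 4 differences were positive and 3 negative, with a median of 0.09 that became -0.0028 without wild-type replicate 4. The other 6 members summed to 296 to 718 intensity units per wild-type array and 405 to 532 per knockout array, so they overlapped. miR-222 and miR-221, of 1 cluster, gave 0.43 (SE 0.21) and -0.30 (SE 0.27), or 0.21 and -0.03 without that array, and miR-96 and miR-183, also on the list, were above blank on 0 of 8 arrays. A lower share of granulocytes and less miR-223 per cell cannot be told apart in these bulk samples, and the same holds for every miRNA here.

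miR-125b, which acts in haematopoietic differentiation and has been linked to macrophage activation, gave 7.65, 7.85, 7.97 and 8.24 in wild type. In the knockout it gave 6.47, 6.68, 6.70 and 6.70, so the arrays of each group lay close together and well apart from the other group. The difference was 1.29 (SE 0.14, 95% interval 0.99 to 1.59, limma adjusted p = 0.000136), a 2.45-fold higher level in wild type, with net signals of 153 to 276 against 39.9 to 68.4 intensity units. Its probe is dim in the knockout, where the offset of the background correction compresses differences: with plain subtraction the difference was 2.04.

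miR-720 was the brightest of the 4, at 11.80, 11.38, 12.37 and 11.80 in wild type and 10.72, 10.72, 10.58 and 10.72 in the knockout. The entry has since been removed from miRBase as a likely fragment of a transfer RNA. Quantile normalization gives the same value to the same rank on different arrays, hence the ties. It was 2.22-fold higher in wild type (difference 1.15, SE 0.23, limma adjusted p = 0.0150). This call did not hold with median scaling (0.97, limma adjusted p = 0.218) or with no normalization between arrays (1.00, limma adjusted p = 0.229), and on the net scale the lowest wild-type array, 1623 intensity units, lay within the knockout range of 1374 to 1739.

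miR-150, a miRNA of mature lymphocytes that limits Myb, went the other way. It gave 6.26, 6.51, 6.34 and 5.97 in wild type and 7.03, 7.03, 7.42 and 7.42 in the knockout. It was 1.94-fold lower in wild type (difference -0.96, SE 0.13, 95% interval -1.23 to -0.68, limma adjusted p = 0.000573). It was above blank on 2 of 4 wild-type and 4 of 4 knockout arrays, with net signals of 9.797 to 40.0 against 97.1 to 158 intensity units, and with plain subtraction the difference grew to -2.01. Since miR-150 is abundant in lymphocytes, the other lymphocyte members were set beside it. None of the other 5 passed by limma, and 0 of them had an unadjusted p under 0.05. miR-342 gave -0.10 (SE 0.15), miR-155 gave -0.12 (SE 0.23), miR-181a gave -0.15 (SE 0.11), miR-181b gave -0.01 (SE 0.08) and miR-181c gave 0.16 (SE 0.10). Together these 5 summed to 110 to 251 intensity units per wild-type array and 145 to 238 per knockout array. miR-181c was above blank on 0 of 8 arrays and miR-181a on 1. The part of lymphocytes in the miR-150 difference was not tested.

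miR-689 showed the largest difference of the 343 probes. It gave 8.07, 7.47, 7.94 and 6.82 in wild type and 9.78, 10.39, 9.90 and 9.31 in the knockout. It was 4.82-fold lower in wild type (difference -2.27, SE 0.34, 95% interval -3.01 to -1.53, limma adjusted p = 0.00131). Its net signal was 87.6 to 374 intensity units in wild type and 583 to 1152 in the knockout, so the groups did not overlap before normalization either.

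**Figure D2:**
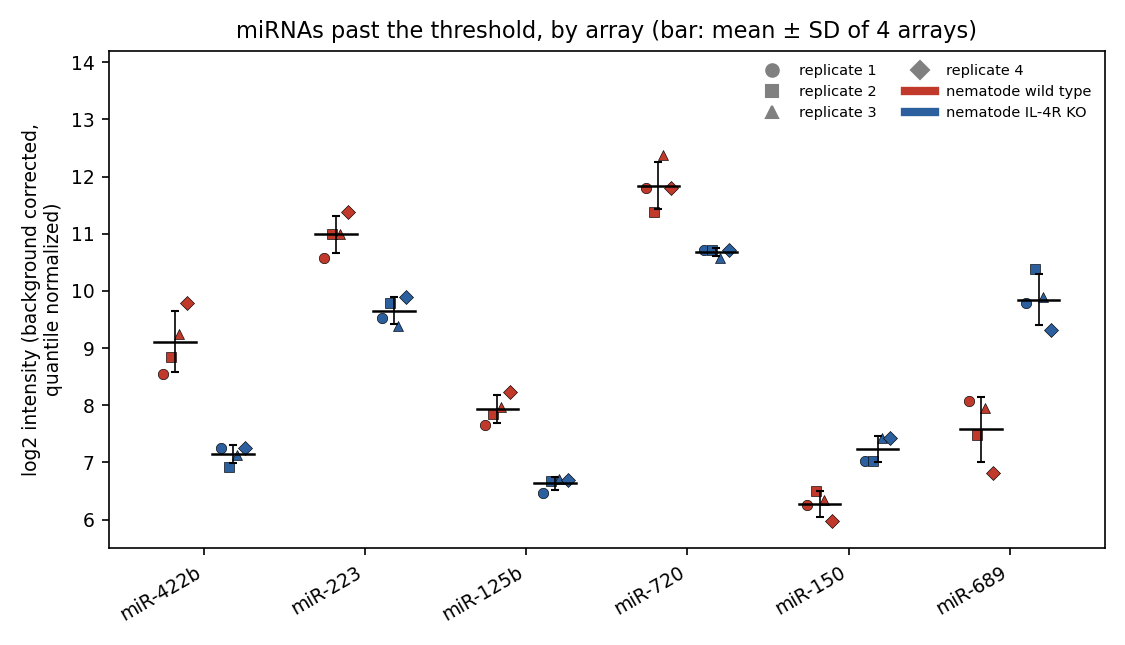
Log2 intensity (y) of the 6 miRNAs that passed the threshold (x) on each of the 4 nematode wild type (red) and 4 nematode IL-4R KO arrays (blue); marker shapes are replicates, and bars are mean ± SD. For each miRNA the 2 groups do not overlap. The wild-type arrays of miR-422b spread from 8.55 to 9.78 after normalization, in the reverse order of their net signals.

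Each nematode slide held 2 arrays of 1 genotype, so slide and genotype are nested, with 2 slides per genotype. With slide as a random block the consensus correlation was -0.02 and the same 6 probes passed (1.75%). Taken slide by slide, the 4 differences between a wild-type and a knockout slide ran from 1.51 to 2.43 for miR-422b, from 1.13 to 1.55 for miR-223 and from 1.05 to 1.53 for miR-125b. They ran from 0.87 to 1.44 for miR-720, from -1.27 to -0.65 for miR-150 and from -2.71 to -1.83 for miR-689. The direction was the same between every pair of slides, which follows from the lack of overlap between the groups for these 6. A slide effect therefore cannot be told apart from genotype by this. Fitted on the 8 nematode arrays alone, without the spread of the thioglycollate groups, the same 6 probes passed, with limma adjusted p between 0.00247 and 0.0132.

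Without nematode wild type replicate 4 the count of probes that passed rose from 6 to 12 (3.5%), 10 higher (2.92%) and 2 lower (0.583%) in wild type. At an unadjusted p under 0.05 there were then 22 higher (6.41%) and 24 lower (7%). The 6 above were among them. Replicate 4 held the highest wild-type value of miR-422b, miR-223 and miR-125b and the lowest of miR-150 and miR-689. Without it these 5 differences were smaller in size. They were 1.74 for miR-422b, 1.21 for miR-223, 1.19 for miR-125b, -0.86 for miR-150 and -2.02 for miR-689. The difference of miR-720 was 1.16 without it. The 6 added were miR-100, miR-99a, miR-199b, miR-500, miR-365 and miR-489, all higher in wild type. On replicate 4 the latter 3 gave 6.12, 6.05 and 6.04, whereas on the other 3 wild-type arrays they lay between 6.94 and 7.64 and above every knockout array. With all 4 arrays miR-365 gave 0.51 (SE 0.27), miR-500 gave 0.40 (SE 0.25) and miR-489 gave 0.39 (SE 0.27), none near the threshold. With array weights over all 14 arrays miR-365 and miR-500 passed too, whereas miR-489 passed in none of the other settings.

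**Figure D3:**
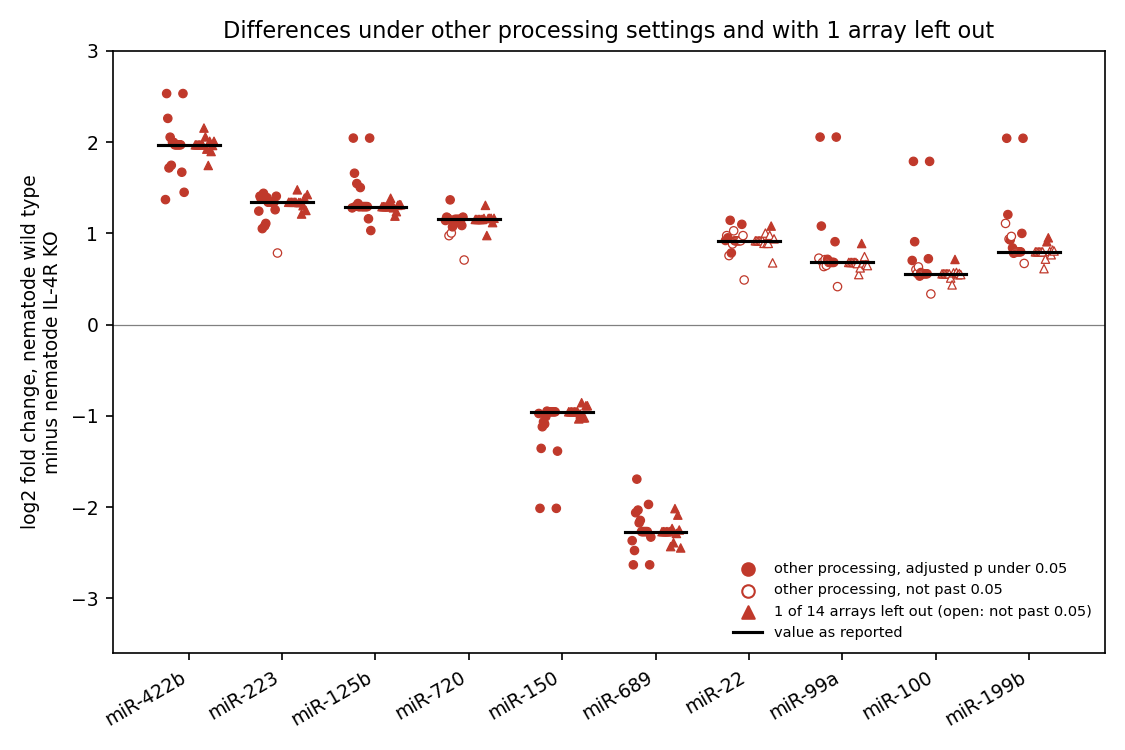
Difference between the nematode groups (y, log2, wild type minus IL-4R KO) for the 6 miRNAs that passed and 4 that came close (x), recomputed with other processing (circles) and with 1 of the 14 arrays left out (triangles); filled symbols passed an adjusted p of 0.05 and black bars are the values reported. No symbol crosses 0, and miR-422b, miR-125b, miR-150 and miR-689 have no open symbol.

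miR-99a and miR-100, which target mTOR, share a seed with each other but not with miR-125b. Their genes lie near those of miR-125b, and they came just short of the threshold with all arrays. miR-100 gave 6.63, 6.85, 6.46 and 6.02 in wild type and 5.98, 5.90, 5.94 and 5.91 in the knockout, where it was above blank on 0 of 4 arrays. Its difference was 0.56 (SE 0.13, limma adjusted p = 0.0566). As the knockout value is only a bound, wild type is given as at least 1.07-fold higher. Here "at least" compares the wild-type mean with a floored knockout mean. Per knockout array this took the higher of the probe's own value and the lowest value among probes above blank. Wild-type arrays were not floored, and miR-100 was above blank on only 2 of 4 of them, so this is not a strict lower bound. miR-99a gave 6.70, 7.06, 6.84 and 6.03 in wild type and 5.96, 6.16, 5.91 and 5.87 in the knockout (0.68, SE 0.17, limma adjusted p = 0.0588; at least 1.21-fold). The 2 groups of miR-99a overlapped through wild-type replicate 4. It was above blank on 2 of 4 wild-type and 0 of 4 knockout arrays, so its "at least" has the same limit. Without it the differences were 0.71 (SE 0.08, limma adjusted p = 0.000250) for miR-100 and 0.89 (SE 0.11, limma adjusted p = 0.000250) for miR-99a. With all arrays kept, miR-100 passed in 9 of 16 other settings and miR-99a in 7. Both counts include plain subtraction and the authors' deposited value table, which hold the same values. Both are dim, and with plain subtraction the differences were 1.79 and 2.05 (limma adjusted p = 0.00572 and 0.00721).

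The members of the third cluster, with the same seeds, had negative differences. miR-125a gave 6.33, 6.94, 6.71 and 6.01 in wild type and 7.14, 6.80, 7.16 and 7.47 in the knockout, so 1 wild-type array lay above the lowest knockout array. Its difference of -0.64 (SE 0.19, limma adjusted p = 0.117) did not pass. miR-99b gave 6.14, 6.21, 6.23 and 6.15 against 6.47, 6.25, 6.46 and 6.65 (-0.27, SE 0.10, limma adjusted p = 0.202). Its groups did not overlap, although the highest wild-type and lowest knockout arrays were nearly level, and it was above blank on 2 of 4 and 3 of 4 arrays. miR-125a did pass with median scaling, with cyclic loess, with no normalization, with array weights, with spike-in scaling and without nematode wild type replicate 2. Thus of the 5 measured members of the 3 clusters 1 passed and 3 were positive and 2 negative, with a median of 0.56. The let-7 members of these clusters did not pass: let-7c gave 0.30 (SE 0.26) and let-7e gave -0.07 (SE 0.10), with limma adjusted p of 0.627 and 0.761. Without wild-type replicate 4 let-7c gave 0.06.

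**Figure D4:**
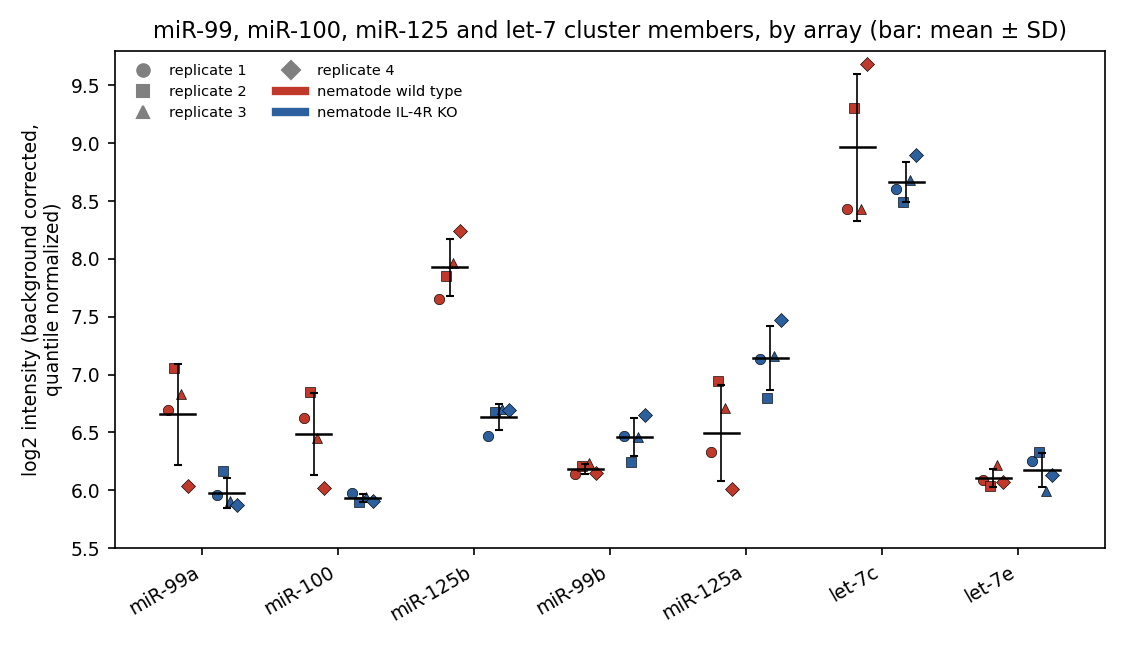
Log2 intensity (y) of the miR-99, miR-100, miR-125 and let-7 members of the 3 clusters (x) on each nematode wild type (red) and nematode IL-4R KO array (blue); marker shapes are replicates, and bars are mean ± SD of 4 arrays. miR-99a, miR-100 and miR-125b have higher wild-type means and miR-99b and miR-125a lower ones; the diamonds of wild-type replicate 4 lie lowest in their group for miR-99a, miR-100 and miR-125a.

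Other miRNAs close to the threshold were miR-22 and miR-199b. miR-22, a miRNA of many tissues that acts in haematopoiesis, gave 10.72, 10.39, 10.72 and 10.72 in wild type and 9.90, 10.20, 8.996 and 9.78 in the knockout (0.92, SE 0.22, limma adjusted p = 0.0566). Its groups did not overlap, and it passed in 6 of the 17 other settings. miR-199b gave 7.38, 7.07, 6.49 and 6.36 in wild type and 6.04, 5.93, 6.09 and 6.06 in the knockout (0.80, SE 0.20, limma adjusted p = 0.0569). It was above blank on 3 of 4 wild-type and 0 of 4 knockout arrays. It was at least 1.36-fold higher in wild type, with the limit on "at least" given above. miR-199b is abundant in fibroblasts, and it passed in 9 of the other settings. Of the 10 measured stromal and mesothelial members none passed by limma, 2 had an unadjusted p under 0.05 (miR-199b and miR-10a), 8 were positive, and the median was 0.06. The list summed to 190 to 539 intensity units per wild-type array and 214 to 278 per knockout array, while miR-143, miR-10b and miR-199a were above blank on 0 of 8 arrays. The part of stromal cells in the miR-199b difference was not tested.

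Groups of miRNAs were read by counts and medians, beside the 1.75% of probes that passed and the median of -0.004 over all. The lists were chosen with earlier results of these data known. In the macrophage polarization list 2 of 14 members passed, miR-125b and miR-223, both higher in wild type, while 9 of the 14 differences were negative and the median was -0.07. Without wild-type replicate 4 the balance turned, with 6 negative differences and a median of 0.03. miR-146 (-0.34, SE 0.11, limma adjusted p = 0.172), a brake on Toll-like receptor signalling, did not overlap between groups, with 6.15 to 6.57 in wild type and 6.63 to 6.88 in the knockout. miR-27a gave -0.54 (SE 0.23, limma adjusted p = 0.320). In the inflammatory list none of 10 members passed by limma and 1, miR-146, had an unadjusted p under 0.05. miR-155, induced by inflammatory stimuli, gave 6.78, 7.32, 7.59 and 6.19 in wild type and 7.12, 7.04, 7.26 and 6.93 in the knockout, a difference of -0.12 with a 95% interval of -0.61 to 0.38; without wild-type replicate 4 it was 0.14. miR-21, at or near the top rank on every array, gave -0.06 (95% interval -0.44 to 0.33). Its value followed the scaling: with arrays scaled to the spike-in controls it was -0.78 and passed (limma adjusted p = 0.0316). Among the 10 myeloid members 1 passed, miR-223; the median was -0.06. miR-142-3p gave 9.96, 9.90, 9.13 and 7.76 in wild type and 9.31, 9.68, 11.00 and 10.39 in the knockout. Its difference of -0.91 had a 95% interval of -1.91 to 0.10, and without wild-type replicate 4, its lowest array, it was -0.43.

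The miR-17-92 cluster and its paralogs, which act in proliferation, had 12 of 14 negative differences and a median of -0.19. None passed by limma, and 5 had an unadjusted p under 0.05, all lower in wild type, against 8.16% of all probes. With spike-in scaling, under which the median of all mouse probes was -0.28, 4 of the 14 passed as lower: miR-106b, miR-17-5p and both miR-20a probes. miR-106b also passed with the replicate number as a block. miR-106b, from a paralog cluster in an intron of Mcm7, gave 7.23, 7.59, 7.48 and 6.40 in wild type and 8.32, 8.03, 7.94 and 7.65 in the knockout (-0.81, SE 0.23, limma adjusted p = 0.0994). The arrays did not overlap. The more negative of the 2 miR-20a probes gave -0.55 (SE 0.17, limma adjusted p = 0.148) and the other -0.45 (SE 0.22), and miR-17-5p gave -0.66 (SE 0.25, limma adjusted p = 0.245). Of the 7 probes with the miR-17 seed, AAAGUGC, 6 were negative, with values from -0.81 to 0.01. The sequence of miR-17-5p differs from that of miR-20a-5p at 2 of 23 positions, so these probes may not be independent readings. Without wild-type replicate 4 the list median was -0.13, with 10 negative differences, and miR-106b and miR-17-5p gave -0.55 and -0.36.

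Of the 8 let-7 family probes, which share the seed GAGGUAG, 7 were negative and the median was -0.22. let-7i had the largest value, -0.996 (SE 0.40, limma adjusted p = 0.291), with 6.13 to 7.99 in wild type and 7.41 to 8.94 in the knockout. Its groups overlapped, and without wild-type replicate 4, its lowest array, the let-7 median was -0.05 and let-7i gave -0.60. With spike-in scaling let-7i and let-7g passed as lower. All 5 miR-23, miR-24 and miR-27 probes were negative, from -0.54 to -0.09, and 0 passed by limma, with 1 at an unadjusted p under 0.05; without wild-type replicate 4 miR-27b turned positive (0.06). miR-29a gave 0.61 (SE 0.22, limma adjusted p = 0.202), whereas miR-29c, with the same seed, gave -0.21 (SE 0.14). The Dlk1-Dio3 imprinted cluster, the largest list with 38 probes, had 21 positive and 17 negative differences and a median of 0.01 (-0.02 without wild-type replicate 4), and 17 of its probes were above blank on none of the 8 arrays. Erythroid, endothelial, epithelial and muscle or liver lists had medians between 0.00 and 0.15 with no member past the threshold by limma. miR-451 and miR-144, red cell markers, were above blank on 0 of 8 arrays. miR-486, the other erythroid and platelet member, was above blank on 1 wild-type array and gave 0.15 (SE 0.09). Its groups did not overlap, as for 9.04% of all probes.

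**Figure D5:**
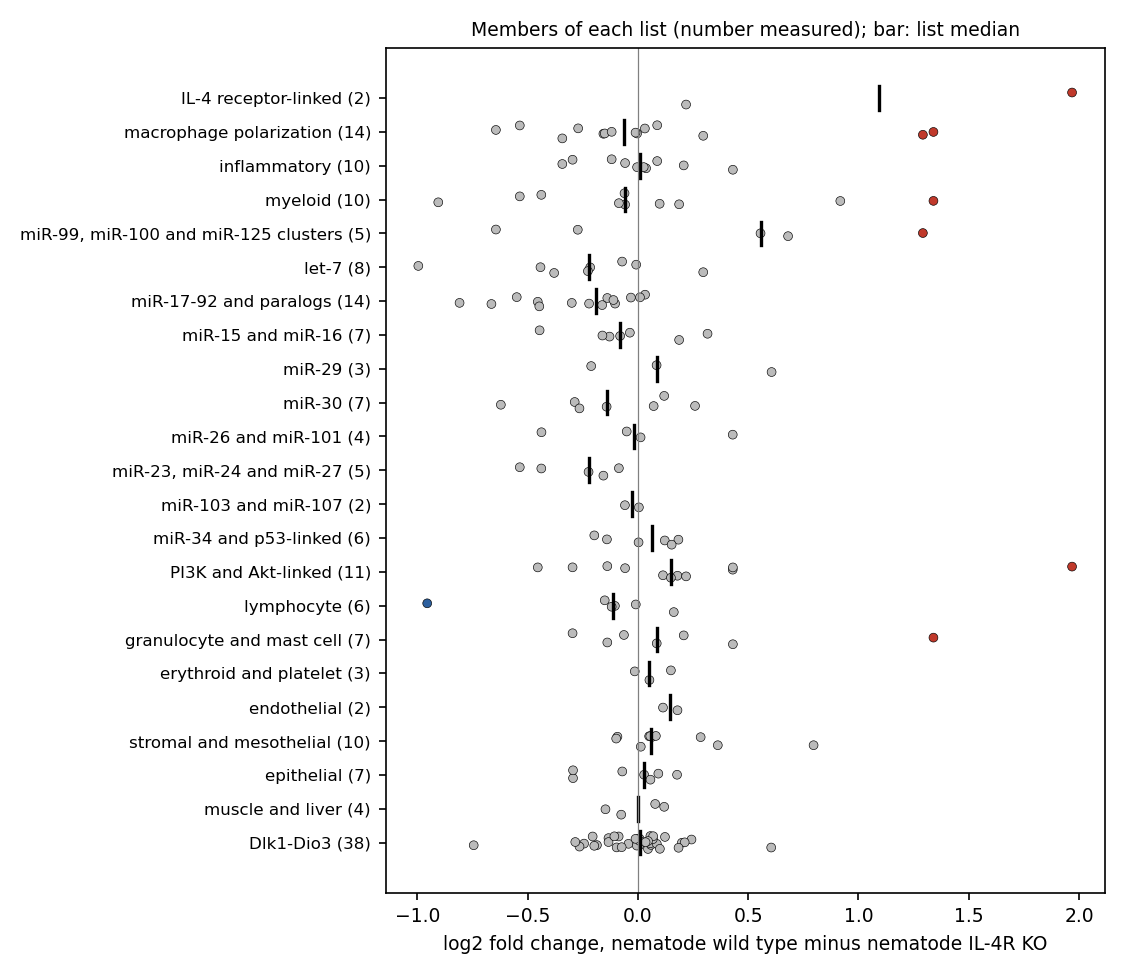
Difference between the nematode groups (x, log2, wild type minus IL-4R KO) of each measured member of the 23 lists (y, number of probes in brackets); red and blue points passed an adjusted p of 0.05 as higher and lower in wild type, and black bars are list medians. The miR-99, miR-100 and miR-125 list has a median of 0.56, while the let-7 and miR-17-92 lists lie mostly below 0, with medians of -0.22 and -0.19.

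Of 60 probes of families with known seeds, 55 were matched to a RefSeq mature strand, which gave 20 seeds, 15 of them shared by 2 or more probes. Over all 343 probes 166 differences were positive, so mixed signs in a family would be common without any tie to the seed. A shared seed went with both signs in 13 of these 15 families, for AAAGUGC only through miR-93 (0.009, SE 0.075). The exceptions, with both members negative, were miR-19a with miR-19b and miR-27a with miR-27b; without wild-type replicate 4 miR-19a (0.07) and miR-27b (0.06) were positive.

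To ask whether the genotype differences depended on the elicitation, the same contrast was taken in thioglycollate-elicited cells and the difference of both contrasts was tested. In thioglycollate-elicited cells 1 of 343 probes passed (0.292%), which was not among the 6. The difference of contrasts passed for 2 probes (0.583%), against 23 with an unadjusted p under 0.05 (6.71%). One was miR-422b: in thioglycollate-elicited cells it was 7.26 ± 0.18 (SD, n = 3) in wild type and 7.11 ± 0.27 (SD, n = 3) in the knockout, a difference of 0.15 with a 95% interval of -0.40 to 0.70. The contrasts differed by 1.82 (SE 0.33, limma adjusted p = 0.0224). The knockout means were 7.14 and 7.11 in the nematode and thioglycollate groups, and the nematode wild-type mean of 9.11 stood apart from the other 3 groups. This call was not kept in 5 of 16 other settings or when any of 7 of the 14 arrays was left out; the limma adjusted p ran from 0.00159 to 0.710 over the settings, and the size from 1.23 to 2.27.

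For the other 5 the difference of contrasts did not pass. For miR-223 it was 1.01 and for miR-125b 0.77 (SE 0.28 and 0.21, both with a limma adjusted p of 0.211), and for miR-720 it was 0.60 (SE 0.35, limma adjusted p = 0.904). It was -0.84 (SE 0.19, limma adjusted p = 0.0935) for miR-150, which did pass in 5 of 16 other settings and without nematode wild type replicate 2 or 4 (limma adjusted p = 0.0464 and 0.0449), with a limma adjusted p of 0.00407 to 0.592 and values from -1.61 to -0.79 over the settings. It was -1.79 (SE 0.52, limma adjusted p = 0.217) for miR-689. In thioglycollate-elicited cells the differences themselves had the same sign as in nematode-elicited cells for all 6. They were 0.55 (SE 0.27) for miR-720, 0.53 (SE 0.16) for miR-125b, -0.11 (SE 0.15) for miR-150, -0.48 (SE 0.40) for miR-689 and, for miR-223, 0.33 (SE 0.21). None of these passed by limma. With 3 arrays a group, the intervals reach from 0.18 to 0.87 for miR-125b and from -1.33 to 0.38 for miR-689, so a smaller genotype difference under thioglycollate could not be told from none for most of them.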

How the data were processed

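Total RNA was labelled with the dye Hy3 in the presence of spike-in miRNAs and hybridised to 1-colour Exiqon miRCURY LNA arrays, 2 per slide, per the labels' protocols. The deposited slide files hold the foreground and local background intensity of each spot, not background subtracted or normalized, per the file headers. The authors' deposited value table of intensity equalled foreground minus background within 0.001. Values were analysed in R 4.3.3 and limma 3.58.1: normexp background correction (offset 50), log2, mean of the 3 spots of a probe, quantile normalization over the 343 mouse and 966 other miRNA probes. One mean per group was fitted over all 14 arrays (lmFit, eBayes), with two-sided tests and Benjamini-Hochberg adjustment over 343 probes. Intervals are 95% and cover array spread; the number of arrays limits the precision. In simulated data the fit recovered the changes of 2 log2 units that were put in. Those data had 1 common spread for all probes, no poor array and no slide effect. They check the code, not the error rates on these arrays. The members and lists were chosen with earlier results of these data known. Named miRNAs are those that passed, the 10 highest and 10 lowest with an unadjusted p under 0.05 and no overlap, a list of macrophage miRNAs, and the 2 smallest p in each of 23 lists. miR-99a, miR-99b, miR-125a, let-7c, let-7e, miR-365, miR-489, miR-500 and other list members given with values were added after their values were seen. Replicate numbers did not pair the samples: correlations of same-numbered deviations were -0.13 to 0.12. Spike-in scaling was added after seeing the data. Some miRNA sequences were not used here.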

Additional observations from a re-analysis of the deposited data

Results flagged for a closer look

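Among 130 groups of 4 arrays examined, 8 held 1 array far from the other 3 by a test of the gap over the range that chance alone meets in about 1 in 20 groups. Of miRNAs that passed or came close, miR-125b gave 6.469 on nematode IL-4R KO replicate 1, against 6.677 to 6.701 on the other 3. miR-720 gave 10.58 on nematode IL-4R KO replicate 3, where the others shared 10.72, and miR-22 gave 10.39 on nematode wild type replicate 2, where the others shared 10.72. For miR-720 and miR-22 the shared values come from shared ranks after quantile normalization. For miR-125b the net signal before normalization was also lowest on that array, at 39.9 against 49.7 to 68.4 intensity units. Nematode wild type replicate 4 was low for miR-710 (6.021), miR-381 (5.816) and miR-489 (6.037, against 7.257 to 7.409 on the other 3). Nematode wild type replicate 1 was high for miR-181c (6.456), and nematode IL-4R KO replicate 2 was low for miR-10a (6.521).

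The difference of the genotype contrasts between elicitations passed the test for miR-422b (1.817, limma adjusted p = 0.0224) and for miR-34a (1.021, SE 0.17, limma adjusted p = 0.0224). miR-34a, a p53-induced miRNA, gave 6.05 in nematode wild type and 6.19 in nematode IL-4R KO, and 6.39 ± 0.05 (SD, n = 3) and 7.55 ± 0.21 (SD, n = 3) in the thioglycollate groups, with a thioglycollate contrast of -1.16 (SE 0.13) and a nematode contrast of -0.14 (SE 0.11).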

How the results depend on the processing

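Plain subtraction and the authors' deposited value table hold the same values, so every tally of settings counts 1 reading 2 times. miR-422b, miR-125b, miR-150 and miR-689 kept their direction and their side of the threshold under all 17 other settings and all 14 single-array omissions. miR-223 did so except with spike-in scaling (0.78, adjusted p = 0.0624), and miR-720 except with that (0.71, adjusted p = 0.116), median scaling and no normalization. The count of 6 probes became 10 with a normexp offset of 20, 14 with cyclic loess, 10 with trend and robust fitting, 13 with array weights and 19 with spike-in scaling. It ran from 6 to 12 with 1 array left out, the 12 being without nematode wild type replicate 4. With the replicate number as a block it was 9 (6 higher, 3 lower), but the numbers do not pair these samples. The 10 spike-in controls averaged 0.30 higher in wild type before normalization, 1 without overlap between groups. This came from 1 slide: their mean was 8.245 and 7.843 on wild-type replicates 1 and 2. It was 7.317 and 6.988 on replicates 3 and 4, and 7.191 to 7.411 on the knockout arrays. Scaling to these controls moved the median of all mouse probes to -0.28, and relative to that shift miR-223 and miR-720 remained positive. The count for the difference of contrasts, 2, became 0 with no background correction, plain subtraction, the authors' deposited value table and spike-in scaling, 4 with median scaling and with no normalization, 1 with trend and robust fitting and 10 with array weights. With 1 array left out it ran from 0 to 7. It was 0 without thioglycollate wild type replicates 2 or 3 or thioglycollate IL-4R KO replicates 1 or 3, 1 without nematode wild type replicate 3 or nematode IL-4R KO replicates 2 or 3, and 7 without nematode wild type replicate 4.

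Some differences that did not pass changed sign, most of them near 0 but also miR-26a and miR-222 (both 0.43), let-7c (0.30) and miR-221 (-0.30); the cause was not tested. With spike-in scaling these were miR-34b (-0.14), miR-107 (-0.28), miR-322 (-0.044), miR-30a-3p (-0.22), miR-181c (-0.019), miR-26a (-0.16), miR-144 (-0.13), miR-126-3p (-0.11), miR-142-5p (-0.50), miR-201 (-0.0077), miR-126-5p (-0.055), miR-133a-133b (-0.12), let-7c (-0.19), miR-486 (-0.10), miR-222 (-0.15) and miR-378 (-0.043). miR-107 also turned with plain subtraction and the authors' table (-0.050), offset 20 (-0.0055), median scaling (-0.018) and quantile normalization over mouse probes alone (-0.013). miR-144 turned with no background correction (-0.020), plain subtraction and the authors' table (-0.037), the median of spots (-0.010) and array weights (-0.043). miR-142-5p turned with no background correction (-0.12), median scaling (-0.23), no normalization (-0.21) and array weights (-0.59). With no background correction miR-342 (0.038), let-7e (0.048) and miR-451 (0.027) turned, the last also with no normalization (0.015); miR-103 did with array weights (0.012) and, with cyclic loess, miR-155 (0.0037) and miR-221 (0.052). With 1 array left out, values ran from -0.10 to 0.13 for miR-107, -0.19 to 0.11 for miR-103, -0.33 to 0.14 for miR-155, -0.070 to 0.12 for miR-144, -0.20 to 0.13 for miR-21, -0.67 to 0.47 for miR-142-5p and -0.038 to 0.0075 for miR-451. Signal over background limits the dim probes, of which 91 were above blank on no nematode array. Probes named for miR-150, miR-199b and miR-100 of other species were dim, with group means of 5.90 to 6.08, and did not follow the mouse probes. They gave 0.06 (SE 0.09) for dre-miR-150, 0.04 (SE 0.05) for hsa-miR-199b, 0.06 (SE 0.08) for dme-miR-100 and 0.08 (SE 0.10) for dps-miR-100. How well they bind the mouse strands was not tested.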
